A study of Mus musculus with 8 samples.

Results

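The genes described here encode the troponin subunits and the muscle actins of the mouse. They are the troponin I genes Tnni1 (slow skeletal) and Tnni3 (cardiac), the troponin T genes Tnnt1 (slow skeletal), Tnnt2 (cardiac) and Tnnt3 (fast skeletal), the troponin C genes Tnnc1 (cardiac and slow skeletal) and Tnnc2 (fast skeletal), and the actin genes Acta1 (skeletal muscle), Actc1 (cardiac muscle) and Acta2 (smooth muscle). These 10 genes were taken by symbol from a table of 27179 genes, and each symbol stood there once. The table holds total RNA of 8 libraries, 1 for each pairing of brain, heart, kidney or liver with flash-frozen tissue (frozen) or formalin-fixed, paraffin-embedded tissue (FFPE), so every group is 1 library. The sources used here do not give the strain, genotype, age, number of animals behind a library or the piece of each organ that was taken. The p-values therefore measure only the spread among these libraries, which may be technical.

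Muscle contracts when myosin heads of the thick filament pull on actin in the thin filament. Troponin is the calcium switch of that filament: troponin C binds calcium, troponin I holds back the interaction of actin with myosin, and troponin T ties the complex to tropomyosin. Each subunit comes in isoforms that differ between heart, slow and fast skeletal muscle, and the heart exchanges the slow skeletal troponin I of the fetus for the cardiac form around birth. The alpha actins are nearly identical proteins from separate genes, of which Actc1 is the main form of adult rodent heart muscle, Acta1 that of skeletal muscle, and Acta2 that of the smooth muscle in vessel walls, of pericytes and of activated fibroblasts.

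The libraries held 10180972 (FFPE brain) to 20526813 (frozen heart) reads assigned to genes. Levels are given as reads and as counts per 1000000 reads (CPM) on the authors' scaled library sizes, on which 3 reads, the floor used here, stand for 0.119 CPM (frozen brain) to 0.292 CPM (frozen heart). Markers of the labelled organs were in place: the albumin gene Alb stood at 35200 and 33282 CPM in frozen and FFPE liver and at no more than 9.04 CPM elsewhere, and the cardiac myosin gene Myh6 at 14325 and 14171 CPM in heart and at no more than 6.26 CPM elsewhere. Both heart libraries thus carry heart muscle RNA, but they differed in atrial genes. Myl7 and Sln, an atrial myosin light chain and a calcium pump inhibitor, had 0 reads in frozen heart and 1590 and 536 in FFPE heart. In whole organ RNA, fewer cells of a type and less RNA per cell cannot be told apart.

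Regulatory sequence is shown first for the actin genes and for Tnnt2 and Tnnc1, because each holds an element marked below near its start. RefSeq promoter sequence (GRCm38.p6) was matched for 9 of the 10 genes, in 11 entries, and the 250 bases before each start were searched on both strands. The CArG box, the binding element of serum response factor, and the MCAT element CATTCC, bound by TEAD factors, are in capitals, and capitals also mark CArG-like runs with a C or G at 1 of the 6 inner positions. No capital elements overlap each other. The stretches are Acta1 chr8:123894776-123895025, Actc1 chr2:114052876-114053125 and Acta2 chr19:34255374-34255623, all on the minus strand, and Tnnt2 (the first of its listed starts) chr1:135836084-135836333 and Tnnc1 chr14:31208062-31208311 on the plus strand, each written 5′ to 3′ along the gene.
Acta1: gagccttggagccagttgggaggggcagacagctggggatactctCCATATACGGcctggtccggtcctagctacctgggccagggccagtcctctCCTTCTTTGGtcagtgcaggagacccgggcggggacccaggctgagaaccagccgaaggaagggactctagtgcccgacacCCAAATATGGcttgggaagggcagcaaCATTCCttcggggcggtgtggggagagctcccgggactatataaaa
Actc1: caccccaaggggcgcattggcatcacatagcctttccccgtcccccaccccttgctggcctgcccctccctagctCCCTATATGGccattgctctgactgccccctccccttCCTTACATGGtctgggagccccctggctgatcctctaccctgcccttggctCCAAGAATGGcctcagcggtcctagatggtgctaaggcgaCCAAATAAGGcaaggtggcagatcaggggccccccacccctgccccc
Acta2: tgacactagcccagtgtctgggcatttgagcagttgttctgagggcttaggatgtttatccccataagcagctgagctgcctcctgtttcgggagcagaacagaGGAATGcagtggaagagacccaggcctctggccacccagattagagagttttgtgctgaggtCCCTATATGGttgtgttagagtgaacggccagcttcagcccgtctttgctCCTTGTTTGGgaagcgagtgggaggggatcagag
Tnnt2: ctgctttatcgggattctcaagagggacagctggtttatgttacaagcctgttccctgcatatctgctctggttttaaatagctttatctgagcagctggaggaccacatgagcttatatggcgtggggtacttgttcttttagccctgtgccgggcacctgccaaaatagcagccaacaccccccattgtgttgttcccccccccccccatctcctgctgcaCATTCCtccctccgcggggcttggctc
Tnnc1: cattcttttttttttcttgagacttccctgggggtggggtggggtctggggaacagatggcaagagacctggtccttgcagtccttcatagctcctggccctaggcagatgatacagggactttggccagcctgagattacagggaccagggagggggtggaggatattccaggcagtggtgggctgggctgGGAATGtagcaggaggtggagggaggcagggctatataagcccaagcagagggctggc

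A full CArG box lay in 2 of the 9 genes, 73 to 64 bases before the start of Acta1 and 47 to 38 bases before that of Actc1. It occurs in 1.47% of all 32851 promoter stretches of this length. The CArG-like runs were in all 3 actin genes and in no other of the 9, against 7.24% of all stretches. Acta2 held such runs 84 to 75 and 34 to 25 bases before its start. The MCAT element was found in 4 of the 9 genes against 12.6% of all stretches: forward in Acta1 (46 to 41 bases before the start) and Tnnt2 (27 to 22), and on the other strand in Tnnc1 (58 to 53) and Acta2 (146 to 141). Also searched were the E-box CANNTG (8 of 9 genes, 66.2% of all stretches) and the TATA box TATAA (4 of 9, 22.8%). The GATA motif AGATAA was in 1 of 9 (9.99%) and the MEF2 site in 0 of 9 (2.92%). A gene was counted if any of its listed starts had a match, whereas the shares are per stretch. These are letter matches and say nothing about binding in these organs.

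Gene positions are those of GENCODE vM21 on GRCm38, the assembly also called mm10, which the submitters' processing notes name. Tnni3 (chr7:4518305-4524229) lies 1923 bases from Tnnt1 (chr7:4504570-4516382), both on the minus strand. Tnni1 (chr1:135779434-135810989) lies 25365 bases from Tnnt2 (chr1:135836354-135852260), both on the plus strand. Tnnt3 is at chr7:142498836-142516009 and Tnnc1 at chr14:31208312-31211729 on the plus strand. Tnnc2 (chr2:164777161-164779967), Actc1 (chr2:114047282-114053548), Acta1 (chr8:123891769-123894751) and Acta2 (chr19:34241090-34255590) are on the minus strand. A gene on the opposite strand overlaps Tnnt3, Tnnc1, Tnnc2, Acta1 and Actc1, and Dnaaf3 overlaps Tnni3 on its own strand. These overlaps are of whole gene spans, introns included, and overlap of exons was not checked. The sources used here do not give the strand setting of the counting. Whether reads of such partners were mixed is therefore not known. Nisch, which spans the whole of Tnnc1, had 944 to 5584 reads in every library, whereas A530058N18Rik, which spans Actc1, had 0 reads in both heart libraries.

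Heart held nearly all the troponin and cardiac actin RNA of the 4 organs. The 10 genes took 0.421% of the reads of frozen heart (95% exact binomial interval 0.418 to 0.424) and 0.555% of those of FFPE heart (0.551 to 0.558). In the other libraries their share was between 0.000313% (frozen liver) and 0.00426% (FFPE kidney). Intervals cover counting error only.

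**Figure D1:**
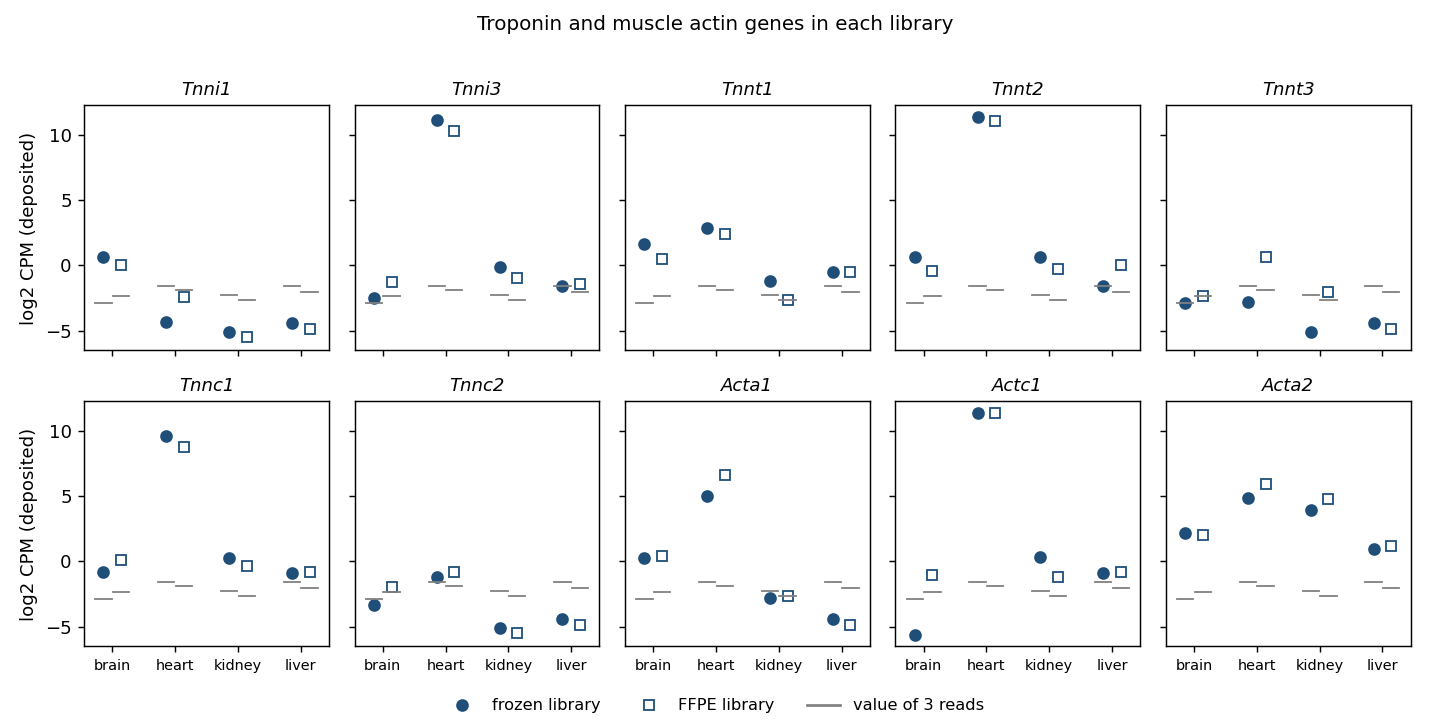
Deposited log2 CPM of the 10 genes (vertical axis) in each organ (horizontal axis), with filled circles for frozen and open squares for FFPE libraries and a grey line at the value of 3 reads. Tnni3, Tnnt2, Tnnc1 and Actc1 stand at 8.77 to 11.39 in both heart libraries and at 0.68 or lower elsewhere, Acta2 lies above the 3-read line in all 8 libraries, and Tnni1 is above it only in brain.

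Cardiac troponin I, Tnni3, had 22486 reads in frozen heart and 16688 in FFPE heart, which are 2192 and 1265 CPM. In the other libraries it had 4 and 7 reads (frozen and FFPE brain), 15 and 11 (kidney) and 3 and 5 (liver). The heart libraries lay far above all others, and the highest level elsewhere, in frozen kidney, was 0.0401% of that in frozen heart. Heart exceeded the mean of the other organs by 12.00 ± 0.43 log2 units (SE, limma over 8 libraries, adjusted p = 7.65e-07). Tnni3 passed the level filter (above 1 CPM in at least 2 libraries) only through heart. That p-value is therefore no independent support for a higher level in heart. Brain, kidney and liver were not separated from each other, with adjusted p from 0.0606 (limma, brain against kidney) to 0.544 (brain against liver).

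Slow skeletal troponin I, Tnni1, was a brain transcript in these libraries, at a low level. It had 39 and 18 reads in frozen and FFPE brain, 0 and 2 in heart, and 0 in all 4 kidney and liver libraries. Brain was at least 8.81-fold above kidney in frozen and at least 7.39-fold in FFPE tissue when kidney is set to the 3-read floor of each library, and at least 5.37-fold and 4.86-fold above liver. Brain exceeded heart by 3.73 ± 0.93 log2 units on the fitted scale with 0.5 reads added (limma, adjusted p = 0.00831), a size that depends on the reads added. Tnni1 passed the level filter only through brain, so this p-value is no independent support for a higher level in brain. Without frozen brain the adjusted p was 0.0621, and without frozen heart 0.0764 (limma). The heart minus mean difference was -0.19 ± 0.76 (adjusted p = 0.847), with a 95% interval from -1.93 to 1.54.

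Cardiac troponin T, Tnnt2, had 27554 and 27958 reads in frozen and FFPE heart (2686 and 2120 CPM). It had 40 and 13 reads in brain, 26 and 18 in kidney and 3 and 14 in liver, so that no library outside heart passed 0.0591% of the heart level of its preparation. Heart was higher by 11.37 ± 0.47 log2 units (limma, adjusted p = 1.14e-06), and the other organs were not separated.

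Slow skeletal troponin T, Tnnt1, was spread over more organs. It had 73 and 69 reads in frozen and FFPE heart, 78 and 25 in brain, 7 and 3 in kidney and 7 and 10 in liver, or 7.12 and 5.23 CPM in heart against 3.09 and 1.40 in brain. Brain reached 43.5% of the heart level in frozen tissue, and both heart libraries still lay above both brain libraries in CPM. Heart exceeded the mean of the others by 3.06 ± 0.45 log2 units (limma, adjusted p = 0.000679). The step from brain to heart was 1.55 ± 0.55 (adjusted p = 0.0403, limma) and did not hold in 6 of 17 alternatives, among them unscaled totals (0.21, adjusted p = 0.767) and the fits without any 1 of the brain and heart libraries (1.30 to 1.79, limma adjusted p from 0.0891 to 0.185). The step from liver to brain (1.54 ± 0.55, adjusted p = 0.0353) did not hold in 8 of 17, among them the fits without either brain library, either heart library or frozen liver (1.03 to 1.79, limma adjusted p from 0.0526 to 0.245), and under quantile normalization it was 0.15 (adjusted p = 0.846, limma). Kidney and liver were not separated (kidney minus liver -1.45, adjusted p = 0.0670, limma), but liver was called higher under quantile normalization (-2.73, adjusted p = 0.00951) and without a mean-variance trend (adjusted p = 0.0462, both limma).

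Fast skeletal troponin T, Tnnt3, did not pass the level filter (above 1 CPM in at least 2 libraries) and was not tested. It had 20 reads in FFPE heart, 5 in FFPE kidney, 3 in each brain library, 1 in frozen heart, and 0 in frozen kidney and both liver libraries. FFPE heart, at 1.52 CPM, was the only library above 1 CPM.

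The calcium-binding subunit of heart, Tnnc1, had 8119 and 5764 reads in frozen and FFPE heart (791 and 437 CPM). It had 14 and 19 in brain, 20 and 17 in kidney and 5 and 8 in liver, and no value elsewhere passed 0.243% of heart. Heart was higher by 9.61 ± 0.37 log2 units (limma, adjusted p = 9.61e-07). Brain, kidney and liver were not separated, with differences of at most 0.81 ± 0.46 (kidney minus liver, limma adjusted p = 0.198). Its fast skeletal counterpart Tnnc2 had 4 and 7 reads in heart, 2 and 4 in brain and 0 in the kidney and liver libraries, and did not pass the filter. Heart was at least 2.22-fold above kidney in frozen and 3.90-fold in FFPE tissue at the 3-read floor.

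Cardiac actin, Actc1, had 27534 and 35328 reads in frozen and FFPE heart, which are 2684 and 2679 CPM on the scaled sizes. In brain it had 0 and 8 reads, in kidney 21 and 9, in liver 5 and 8. The fitted heart difference was 12.94 ± 0.95 log2 units (limma, adjusted p = 1.37e-05), and Actc1 passed the level filter only through heart. The size of the difference rests in part on frozen brain, where 0 reads are entered as 0.5. No other library passed 0.0458% of the heart level.

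Skeletal actin, Acta1, followed in heart at 336 reads in frozen and 1282 in FFPE tissue (32.7 and 97.2 CPM). Brain had 30 and 24 reads (1.19 and 1.34 CPM), kidney 2 and 3, and liver 0 in both. The order was heart, then brain, then kidney and liver at or under the floor. Heart exceeded brain by 5.46 ± 0.65 log2 units (limma, adjusted p = 0.000155), and was at least 114-fold above liver in frozen and at least 470-fold in FFPE tissue. Brain exceeded kidney by 3.08 ± 0.65 (adjusted p = 0.00356, limma), which fell to 0.29 (adjusted p = 0.507) when 5 CPM were added before taking logs. Over all organs the heart difference was 8.14 ± 0.53 (limma, adjusted p = 7.42e-06).

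Smooth muscle actin, Acta2, was the one gene of the 10 above 1 CPM in all 8 libraries. It had 300 and 792 reads in frozen and FFPE heart (29.2 and 60.1 CPM), 259 and 598 in kidney (15.2 and 27.1), 114 and 73 in brain (4.52 and 4.08) and 20 and 32 in liver (1.92 and 2.20). Heart was highest in each preparation, and FFPE kidney came close to frozen heart. Heart exceeded the mean of the others by 2.88 ± 0.26 log2 units (limma, adjusted p = 3.91e-05). Kidney exceeded brain by 2.23 ± 0.32 (adjusted p = 0.000377, limma), with kidney higher in every alternative tried. The step from kidney to heart (1.05 ± 0.32, adjusted p = 0.0278) was lost in 5 of 17 alternatives, among them unscaled totals (0.23, adjusted p = 0.659), the fit without FFPE heart (0.68, adjusted p = 0.211) and those without frozen kidney (0.81, adjusted p = 0.221) or FFPE kidney (1.29, adjusted p = 0.0638; all limma). Brain and liver differed by 1.04 ± 0.32 (adjusted p = 0.0174), lost in 6 of 17 with adjusted p up to 0.384 (limma), among them the fits without frozen brain (0.62) and without FFPE liver (0.85).

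Counted together, 7 of the 8 tested genes were called higher in heart than in the mean of the other organs, where 21.5% of all 15819 tested genes were. Tnni3 and Actc1 passed the filter only through heart and Tnni1 only through brain, so the count describes these genes and does not weigh them against others. The 7 were called in each of the 17 alternatives, and without the filter Tnnc2 was called as an eighth. In the pairs of organs, heart and brain differed for 8 of 8 tested genes (7 higher in heart and Tnni1 higher in brain), beside 58.0% of all tested genes. Heart and kidney differed for 7 (40.9% of all genes), heart and liver for 7 (53.1%), brain and kidney for 4 (56.6%), brain and liver for 4 (67.1%) and kidney and liver for 2 (41.2%). In the 3 pairs without heart these counts of 8 were at or below the share among all genes. Of the kidney and liver calls, that of Acta1 compares values at or under the floor, and that of Acta2 (3.27 ± 0.32 log2 units, adjusted p = 7.25e-05, limma) was held in all 17 alternatives.

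Isoform choice was compared within each family on reads divided by transcript length. In heart the cardiac form made up 99.9% of troponin I (Tnni3) in both preparations, 99.7 and 99.6% of troponin T (Tnnt2, frozen and FFPE), and 99.9% of troponin C (Tnnc1) in both. Of the 3 muscle actins, Actc1 held 98.0% in frozen and 94.9% in FFPE heart, Acta1 1.22 and 3.51%, and Acta2 0.773 and 1.54%. The counting intervals of the actin shares did not overlap between the heart libraries, at 1.09 to 1.35% against 3.32 to 3.70% for Acta1. The length-scaled ratio of Actc1 to Acta1 was 80.4 (95% interval 72.2 to 89.8) in frozen and 27.1 (25.6 to 28.6) in FFPE heart.

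Outside heart the families looked different, on few reads. Tnni1 was 82.9% of troponin I in frozen brain (67.1 to 93.3%, of 45 reads) and 54.9% in FFPE brain (35.2 to 74.0%, of 29 reads), and Tnnt1 was 67.7 and 63.8% of troponin T there. In both kidney libraries Tnni3 led troponin I and Tnnt2 led troponin T (76.1% in frozen and 65.5% in FFPE kidney), on 16 to 33 reads. The cardiac myosin gene Myh6 stood in frozen and FFPE kidney at 0.0437 and 0.0272% of its heart level. Tnni3 stood there at 0.0401 and 0.0394% of its heart level, and Tnnt2 at 0.0567 and 0.0385%. Tnnc1 stood higher, at 0.148 and 0.176%, and Actc1 was at 0.0458 and 0.0152%. The source of these kidney reads was not tested. The lead of Tnnt2 depended on the length used: per length of all annotated exons it held 51.4% in frozen kidney, with Tnnt1 at 48.6%, and 33.9% in FFPE kidney, where Tnnt3 led at 46.2%. Acta2 led the muscle actins in all 6 libraries outside heart, from 62.0% in FFPE brain to 97.3% in FFPE kidney. Acta1 was the next actin in both brain libraries, at 27.0 and 28.7%, whereas in kidney and liver it was Actc1.

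**Figure D2:**
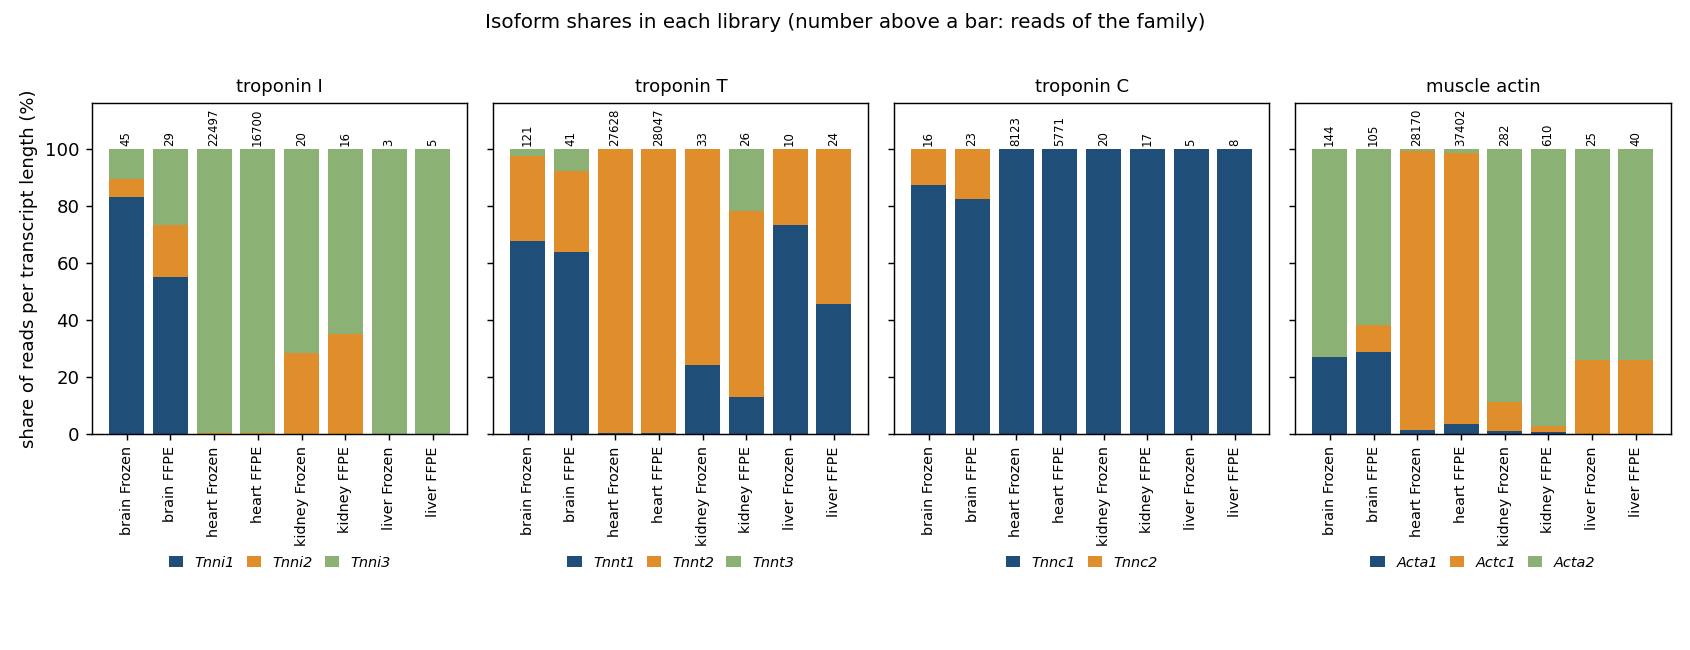
Share of each isoform in its family (vertical axis, percent of reads per transcript length) in the 8 libraries (bars), with the family's reads above each bar. Heart bars are almost wholly Tnni3, Tnnt2, Tnnc1 and Actc1 (98.0 and 94.9% of muscle actin), and brain bars are led by Tnni1, Tnnt1, Tnnc1 and Acta2. All kidney and liver troponin bars rest on 3 to 33 reads. Troponin C rests on 16 and 23 reads in frozen and FFPE brain, and troponin I on 29 in FFPE brain. Tnni2, the fast skeletal troponin I, is drawn for completeness and had at most 11 reads.

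Per kilobase of the principal transcript, the heart components were of similar but not equal level. In frozen heart Tnni3 stood at 2403 CPM per kb, Tnnt2 at 2238, Actc1 at 1822 and Tnnc1 at 1098. In FFPE heart the order was Actc1 at 1819, Tnnt2 at 1767, Tnni3 at 1388 and Tnnc1 at 606. The levels, their order and the ratios between genes depend on the length used. All annotated exons of Tnnt2 span 7752 bases, against 1200 in the transcript used, and those of Tnni3 2063 against 912. For Actc1 the lengths are 1618 against 1473, and for Tnnc1 1041 against 721. Tnni3 to Tnnc1 was 2.19 (2.13 to 2.25) in frozen and 2.29 (2.22 to 2.36) in FFPE heart, intervals that overlap, while Actc1 to Tnnt2 went from 0.814 to 1.03. Neighbouring genes did not share a level: Tnni3 stood 347 times above Tnnt1 per kilobase in frozen and 272 times in FFPE heart.

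Frozen and FFPE tissue were first compared over the 4 organs together. None of the 8 tested genes was called (limma, 0 of 8 also at an unadjusted p under 0.05), beside 3.38% of all tested genes. Acta2 came nearest, at 0.48 ± 0.22 log2 units higher in FFPE (adjusted p = 0.259, 95% interval -0.03 to 0.99), with FFPE higher in heart, kidney and liver and, on the scaled sizes, not in brain. Tnnt1 stood at -0.76 ± 0.39 (adjusted p = 0.304, limma, interval -1.66 to 0.14). The intervals of Actc1 (-1.10 to 2.69) and Tnni1 (-1.38 to 1.63) were wide, as both rest on libraries with few or no reads. limma voom on the recovered reads called Acta1 (1.32, adjusted p = 0.0171), and unscaled totals called Acta2 (0.95, adjusted p = 0.0319), a setting under which the median of all genes lay at 0.54 rather than 0.07.

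Within heart, the 2 libraries differed in a gene-specific way. With 1 library of each kind there is no test, and 19.3% of all tested genes were past 2-fold between them. Acta1 was 2.97 times as high in FFPE as in frozen heart (counting interval 2.63 to 3.36) and Acta2 2.05 times (1.80 to 2.35). Actc1 stood at 0.998 (0.983 to 1.014). The cardiac troponin genes stood lower than these actins, Tnnt2 at 0.789 (0.776 to 0.803), Tnni3 at 0.577 (0.566 to 0.589) and Tnnc1 at 0.552 (0.534 to 0.571). Of the other troponin genes, Tnnt1 stood at 0.735 (0.521 to 1.04), Tnnc2 at 1.36 (0.346 to 6.34, on 7 and 4 reads) and Tnnt3, with 20 reads against 1, at 15.6 (2.49 to 645), while Tnni1 had 2 and 0 reads. These ratios use the scaled sizes. On plain read totals each is 1.66 times larger, which puts Actc1 at 1.66, Tnnt2 at 1.31, Tnnt1 at 1.22, Tnni3 at 0.961 and Tnnc1 at 0.920, and 90.1% rather than 53.9% of all tested genes higher in FFPE heart. The order of the genes is the same on both scales, but Tnnt1, Tnnt2 and Actc1 cross 1. The troponin genes took 0.284% of all reads in frozen and 0.319% in FFPE heart, and the muscle actins 0.137 and 0.236%. The test of the heart change against that of the other organs called none of the 8 genes (Acta1 1.63 ± 0.91, adjusted p = 0.542; Acta2 0.74 ± 0.44, adjusted p = 0.566; limma with a heart-by-preservation term), beside 0.0126% of all genes, with 0 of 8 at an unadjusted p under 0.05 and 0 called by voom.

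**Figure D3:**
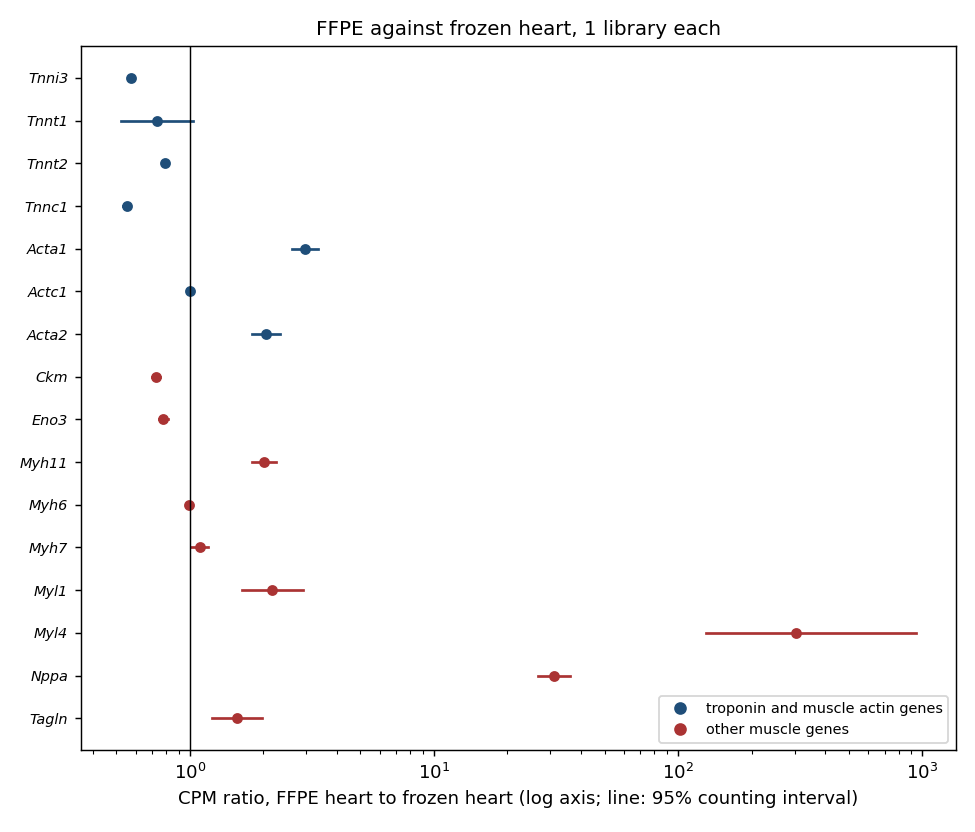
Ratio of CPM on the scaled sizes in FFPE heart to that in frozen heart (horizontal axis, log scale; point, ratio; line, 95% counting interval) for 7 of the 10 genes and 9 other muscle genes with more than 100 reads in the 2 libraries together and at least 1 in frozen heart. Acta1 and Acta2 lie to the right of 1 at 2.97 and 2.05, Actc1 on it, Tnni3 and Tnnc1 to the left at 0.577 and 0.552, and the atrial genes Nppa and Myl4 far to the right at 31.0 and 305. On plain read totals every point would lie 1.66 times farther right.

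Markers of other muscle, and of other organs, differed between the heart libraries too, all on the scaled sizes. All 10 atrial markers listed were higher in FFPE heart, with a summed level of 60.4 CPM in frozen and 1080 CPM in FFPE heart and 4 against 0 markers at 0 reads; Nppa, the atrial natriuretic peptide gene, went from 180 to 7173 reads and Myl4 from 5 to 1959. Of the fast skeletal markers 12 of 16 were higher in FFPE heart, with 3 against 0 at 0 reads, while their sum, held mostly by Ckm and Eno3, was 1014 and 795 CPM. Myh4, a fast skeletal myosin, had 1 read in frozen and 98 in FFPE heart, but also 8 and 46 in brain and 2 and 25 in kidney. Of the smooth muscle and mural markers 14 of 18 were higher in FFPE heart (summed 1452 and 1555 CPM, none at 0 in either), with Myh11 at 2.01 times (1.79 to 2.25) beside Acta2 at 2.05. Of 12 epithelial, hepatocyte and neuron markers 9 were higher as well (median 1.5 log2 units, beside 1.17 for the fast skeletal, 0.67 for the smooth muscle and 0.07 for all tested genes), with 4 against 0 at 0 reads and a sum of 7.21 and 19.6 CPM. The part of these markers in the heart values of Acta1, Acta2, Tnnt3 and the troponins was not tested. The cardiac myosin gene Myh6 stood at 0.989.

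In kidney, Acta2 was 1.79 times as high in FFPE as in frozen tissue (1.54 to 2.08), with Myh11, smooth muscle myosin, at 2.66 (2.38 to 2.98) and Tagln, an actin-binding protein of smooth muscle, at 1.31 (1.09 to 1.58). Of the whole smooth muscle and mural list 12 of 18 were higher and 6 lower in FFPE kidney (median 0.18 log2 units, summed 402 and 462 CPM), among the lower ones Mylk at 163 and 156 CPM and the pericyte gene Pdgfrb at 34.8 and 32.5 in frozen and FFPE kidney. On plain read totals the kidney ratio of Acta2 was 2.77. In brain and liver Acta2 stood at 0.902 (0.663 to 1.22; 1.06 on plain totals) and 1.15 (0.637 to 2.12). Acta2 per length stood at 1.11 to 2.32 times Myh11 over all 8 libraries, with both liver libraries lowest and both heart libraries highest. In brain, Tnnt1 and Tnnt2 were lower in the FFPE library, at 0.451 (0.276 to 0.716) and 0.458 (0.225 to 0.873). On plain totals they stood at 0.529 (0.323 to 0.840) and 0.537 (0.263 to 1.02), where the interval of Tnnt2 no longer excludes equal levels. Actc1 had 8 reads in FFPE against 0 in frozen brain, at least 3.76-fold higher at the floor. The cardiac myosin gene Myh6 had 38 against 5 reads there. Of 15 thick filament genes listed, 11 were higher and 4 lower in FFPE brain, beside 48.9% of all tested genes higher. Only 11 of the 15 passed the level filter, and equal reads count as higher in FFPE brain, whose scaled size is smaller. Other lists were mostly higher there too, with 14 of 14 cardiac and muscle transcription factors and 10 of 12 epithelial, hepatocyte and neuron markers. Smooth muscle and mural markers (9 of 18 higher) and blood markers (1 of 7) were not.

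**Figure D4:**
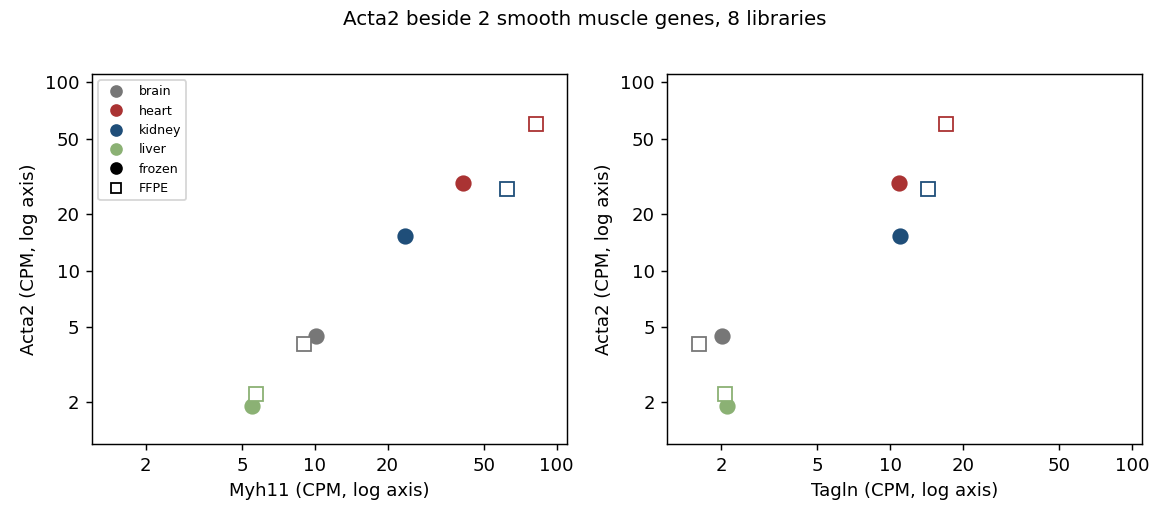
CPM of Acta2 (vertical axis, log scale) against CPM of Myh11 and of Tagln (horizontal axes, log scale) in the 8 libraries, coloured by organ, filled for frozen and open for FFPE. Heart and kidney lie at 15.2 to 60.1 CPM of Acta2 with 23.5 to 82.2 CPM of Myh11, and brain and liver at 1.92 to 4.52 with 5.47 to 10.2.

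The partners of these genes in the sarcomere were counted from lists. Here and for the lists below, some tested genes passed the level filter only through heart, among them Myl2, Myl3, Myoz2 and Lmod2. Listed genes that did not pass the filter were not counted. The counts and medians therefore describe the tested genes and are no independent support for a higher level in heart. Of the thick filament list, 10 of 11 tested genes (15 listed) were higher in heart and 0 lower, with a median of 8.34 log2 units beside -0.19 over all genes; Myl2, the ventricular regulatory light chain, was higher by 13.34 ± 0.76, Myh6 by 13.21 ± 0.74, Myl3 by 13.03 ± 0.81 and the binding protein gene Mybpc3 by 11.85 ± 0.96. Of the list of thin filament partners, not all of them parts of the filament itself, 13 of 14 were higher and 1 lower (median 6.49). Its largest were Xirp2 (12.51 ± 1.05), Lmod2, which lengthens thin filaments (10.56 ± 0.62), Tnni3k, a kinase that binds cardiac troponin I (9.61 ± 0.77), and Nrap (9.49 ± 0.33). Of the Z-disc and titin list 16 of 16 tested (19 listed) were higher (median 8.35), with Myoz2 at 11.55 ± 0.58, Ttn at 11.44 ± 0.27 and Actn2, the alpha-actinin that anchors thin filaments, at 10.19 ± 0.44. Actc1 (12.94) and Tnni3 (12.00) lay within the range of the genes named from these lists and Acta1 (8.14) below it. Those genes were named because they had the largest differences of their lists. Against all tested genes of each list, Acta1 lay near the medians for the thick filament (8.34) and the Z-disc and titin (8.35). It lay above that of the thin filament partners (6.49).

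**Figure D5:**
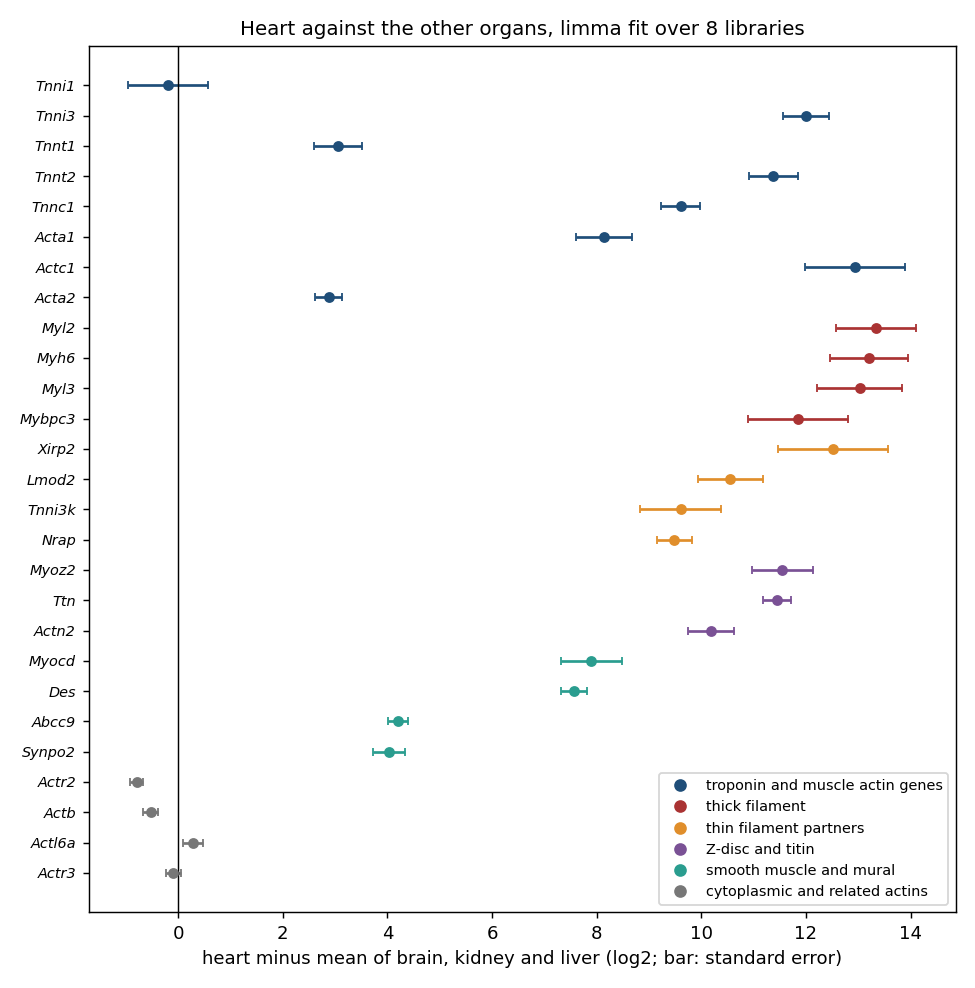
Heart minus the mean of brain, kidney and liver in log2 units (horizontal axis; point, limma estimate; bar, standard error) for the 8 tested troponin and actin genes and for genes named from the lists. Cardiac troponin and actin genes lie between 9.61 and 12.94 with the genes named from the sarcomere lists, Tnnt1 and Acta2 near 3, Tnni1 at -0.19, and the cytoplasmic and related actins between -0.79 and 0.29.

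Of the smooth muscle and mural list 16 of 17 tested genes (18 listed) were higher in heart and 1 lower, with a median of 2.55 log2 units, close to the 2.88 of Acta2. Its largest were Myocd (7.90 ± 0.59), a cofactor of serum response factor, Des (7.57 ± 0.24), Abcc9 (4.20 ± 0.19) and Synpo2 (4.03 ± 0.31), of which Myocd, Des and Abcc9 are also expressed by heart muscle cells. Fibroblast and matrix genes were higher for 10 of 12 and lower for 1 (median 2.59), with Lum at 4.04 ± 0.39, Col3a1 at 3.46 ± 0.20, Dcn at 3.39 ± 0.31 and Vim at 3.19 ± 0.16. Fast skeletal markers were higher for 7 of 10 tested (16 listed; median 5.12), led by Ckm at 12.18 ± 0.98 and Eno3 at 7.31 ± 0.23, muscle enzymes that heart also makes, and by Myl1 (5.95 ± 0.56) and Mybpc2 (5.48 ± 0.73). Of the myogenic regulators and embryonic genes 2 of 11 could be tested, Des and Myl4 (4.92 ± 1.31), and both were higher. The difference of Myl4 rests on FFPE heart (149 CPM). In frozen heart Myl4 stood at 0.487 CPM, below its 1.51 CPM in FFPE brain. Cardiac and muscle transcription factors were higher for 12 of 14 and lower for 1 (median 3.60), with Tbx5 at 8.52 ± 0.66, Nkx2-5 at 8.43 ± 0.85 and Tbx20 at 8.19 ± 0.84. Atrial markers were higher for 4 of 7 tested, Myl4 among them, and lower for 1 (median 4.92), with Nppa at 10.60 ± 1.14 and Kcna5 at 5.24 ± 0.55.

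Cytoplasmic and related actins did not follow the muscle actins: 0 of 5 tested (7 listed) were higher in heart and 2 lower, with a median of -0.09. Actb, the beta-actin gene, stood at -0.52 ± 0.14 (limma adjusted p = 0.0164), a call lost in 3 of 9 other ways of processing with the direction kept in all 9, and Actr2, an Arp2/3 subunit, stood at -0.79 ± 0.12 (adjusted p = 0.000967), beside a median of all genes of -0.19. Epithelial, hepatocyte and neuron markers were lower for 9 of 12 and higher for 0 (median -4.30), among them Ttr (-9.42 ± 1.16), Kap (-6.13 ± 0.93), Slc34a1 (-5.89 ± 0.96) and Alb (-5.18 ± 0.90). Blood markers were higher for 5 of 7 (median 3.93), with the globin genes Hba-a2 at 5.69 ± 0.40 and Hba-a1 at 5.32 ± 0.42. Between FFPE and frozen tissue the lists gave 1 higher gene in the Z-disc list (Ttn, 1.37, limma adjusted p = 0.0266), 1 lower among the cytoplasmic and related actins and 2 lower among blood markers, and 0 elsewhere.

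By Pearson correlation of log2 values over the 8 libraries, which share organ and depth, genes most like each tested gene were the following, as a description. For Tnni3 they included D830005E20Rik (0.995) and Wipi1 (0.993), and for Tnnt2 Myoz2 (0.994), Myl2 (0.991) and Mfn1 (0.989). For Tnnc1 they were Mfn1 (0.994), D830005E20Rik (0.992) and Yipf7 (0.992), and for Actc1 they included Rgs18 (0.989) and Prkag1 (0.988). Acta1 was nearest to Pank4 (0.997), Lrrc8c (0.996) and Twf2 (0.992), Acta2 to Flna (0.998), Casz1 (0.993) and Lama5 (0.991), Tnnt1 to Prxl2b (0.985), Prkaca (0.980) and Nutf2 (0.962), and Tnni1 to 9630013A20Rik (0.998), A230077H06Rik (0.997) and Gm9962 (0.997). Myoz2 and Myl2 are sarcomere genes, and Flna encodes an actin crosslinker.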

How the data were processed

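Total RNA of 8 libraries was analysed. HISAT2, featureCounts and limma and the genome mm10 are named in the submitters' processing notes, with no version or setting; the sources used here do not give strand setting or annotation. The authors deposited log2 values, which are log2 CPM with 0.5 reads added on scaled library sizes, as worked out from the values: whole reads came back for 100% of values within 1e-06, with scaling factors of 0.500 to 1.76. PCR copies of a molecule could not be told from separate molecules, and the intervals and the floor leave out every error but that of counting.

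limma 3.58.1 (R 4.3.3, mean-variance trend) was fitted with organ and preservation as terms, leaving 3 residual degrees of freedom (2 with the heart-by-preservation term), on 15819 genes above 1 CPM in at least 2 libraries. A Benjamini-Hochberg adjusted p under 0.05 counted as a call. Its spread rests on 2 libraries per organ, drawn toward a trend over all genes. The fit was also run on simulated data, which lacked most organ differences and any difference between organs in the effect of preservation. That run therefore does not vouch for the p-values here. Folds against organs without reads used a floor of 3 reads per library. Levels per kilobase and isoform shares used the longest principal transcript of GENCODE vM21. Single-library shares have exact binomial (Clopper-Pearson) 95% intervals, ratios of libraries exact counting intervals. Python 3.11.15 with pandas 2.3.3 and scipy 1.17.1 made the summaries.

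The members, the 12 gene lists and the tests were chosen with earlier results of these data known. Named genes were the 10 members, up to 4 genes per list with the largest heart difference (called genes first) and the 3 genes most correlated with each tested member (2 genes that the rule names are not reported here); markers named by their reads in single libraries were chosen after their values were seen. Alternatives were 2 filters, 3 scalings, 5 CPM added before logs, no trend, robust variance, limma voom and leaving out each library; the exon-union length and within-organ ratios on plain read totals were added after seeing the data.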

Additional observations from a re-analysis of the deposited data

How the results depend on the processing

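The 7 genes higher in heart kept direction and call in all 17 alternatives, and their heart differences shrank when 5 CPM were added before logs, to 8.27 for Tnni3, 8.93 for Actc1 and 0.89 for Tnnt1. Unscaled totals moved the median heart difference of all genes from -0.19 to -1.03 and the share of calls that were higher in heart from 42.8 to 15.0%, and for FFPE against frozen from 35.5 to 98.0%. Of 167 alternatives to the counts and shares 147 stayed on their side, and of 663 to single genes 596. The count for brain against liver was 2 with 5 CPM added (2 to 4 when leaving out 1 library each; 2 without frozen brain). That for kidney against liver was 1 with no filter, median centring, 5 CPM added or voom and 5 with unscaled totals (1 to 2 when leaving out 1 library each, with 1 without frozen or FFPE brain, FFPE heart, frozen kidney or FFPE kidney). The FFPE count was 1 with unscaled totals and 1 with voom, and 0 in every fit that left out 1 library. Shares of plain reads gave Actc1 97.7% in frozen and 94.5% in FFPE heart and Acta2 1.06 and 2.12%, and the exon-union length gave Tnnt2 51.4% of troponin T in frozen and 33.9% in FFPE kidney. On plain totals the FFPE to frozen ratio turned to 1.22 for Tnnt1, 1.31 for Tnnt2 and 1.66 for Actc1 in heart and 1.06 for Acta2 in brain.

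FFPE differences that changed sign were smaller than their SE in the fit reported above. For Tnni1 they were -0.13 (quantile normalization), -0.020 (5 CPM added) and -0.23 (voom), for Actc1 -0.016 (5 CPM added), and with unscaled totals 0.43 for Tnni3, 0.29 for Tnnt2 and 0.38 for Tnnc1. Leaving out 1 library each gave -0.48 to 0.37 for Tnni1, -0.47 to 0.20 for Tnni3, -0.77 to 0.11 for Tnnt2, -0.43 to 0.16 for Tnnc1, -0.061 to 0.62 for Acta1 and -0.47 to 1.58 for Actc1, and -1.42 to 1.03 for the heart difference of Tnni1; the cause was not tested. Of the 41 genes named from lists, the heart calls of Alb, Myl4 and Ttr were each lost in 1 setting, and the uncalled Actl6a and Actr3 changed sign in 1 and 2. Tnni1 had no value under the stricter filter. No paired analysis was possible because each group holds 1 library, so replicate numbers pair nothing beyond the organ, which is already in the fit. Depth limits Tnnt3, Tnnc2, Tnni1 and all values outside heart that rest on fewer than 30 reads.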
